A study of Mus musculus with 8 samples.

Results

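The pigment genes of melanocytes and of the pigmented intermediate cells of the stria vascularis were followed through RNA sequencing of the newborn mouse organ of Corti. They were chosen by gene symbol and number 10 of the 41079 genes in the count tables: Kit, Mitf, Tyr, Tyrp1, Dct, Pmel, Mlana, Slc45a2, Oca2 and Gpnmb. Total RNA of the micro-dissected organ of Corti, taken at postnatal day 0, was sequenced after removal of ribosomal RNA. Of the 8 libraries, 4 carry the label of a conditional Prox1 knockout, with Emx2-cre and a floxed Prox1 gene, and the other 4 are labelled wildtype. The wildtype label names neither Cre nor the floxed allele. Cre is driven from Emx2, so deletion is limited to cells in which that driver is or was active. The labels do not say whether a library is 1 animal or a pool, or which animals the libraries share, so p-values here rest on the variation among these libraries, which may be technical.

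Melanocytes of the inner ear come from the neural crest. In the stria vascularis, the tissue of the lateral cochlear wall that secretes endolymph, they become the intermediate cells, which lie between marginal and basal cells and carry the potassium channel Kcnj10 that the endocochlear potential depends on. The transcription factor Mitf, downstream of the receptor Kit, switches on the enzymes and structural proteins of the melanosome, the organelle in which melanin is made. The labels name the organ of Corti and not the stria, which lies outside it, so the tissue named by the labels is not the one these genes are best known from.

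Tyr, Tyrp1 and Dct encode the 3 related enzymes of melanin synthesis, and their upstream regions are shown because Mitf is known to bind the sequence CATGTG in front of pigment genes. The motif was searched on both strands, together with its longer form TCATGTG and the 11 bases that surround that form in Tyr, AGTCATGTGCT, which is known as the M-box. The 250 bases upstream of the RefSeq gene start (GRCm38.p6) are given 5′ to 3′ on the strand of the gene, with capitals marking any of these matches.
Tyr (chr7:87493513-87493762, minus strand): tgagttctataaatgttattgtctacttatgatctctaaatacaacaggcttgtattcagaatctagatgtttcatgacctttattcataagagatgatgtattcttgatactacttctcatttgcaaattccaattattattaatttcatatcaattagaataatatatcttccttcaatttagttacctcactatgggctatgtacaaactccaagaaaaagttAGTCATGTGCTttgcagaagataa
Tyrp1 (chr4:80833963-80834212, plus strand): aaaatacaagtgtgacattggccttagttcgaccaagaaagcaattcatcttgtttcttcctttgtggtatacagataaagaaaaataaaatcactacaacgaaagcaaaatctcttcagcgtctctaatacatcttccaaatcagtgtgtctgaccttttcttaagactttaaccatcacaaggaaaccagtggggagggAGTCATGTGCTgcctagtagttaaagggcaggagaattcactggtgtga
Dct (chr14:118052247-118052496, minus strand): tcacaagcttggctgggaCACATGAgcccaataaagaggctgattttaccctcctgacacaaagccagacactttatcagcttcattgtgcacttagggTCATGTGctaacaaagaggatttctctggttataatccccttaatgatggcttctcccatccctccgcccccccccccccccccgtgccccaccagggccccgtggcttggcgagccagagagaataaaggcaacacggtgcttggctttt
Counting the base before the gene start as -1, the 11-base M-box begins at -24 in Tyr, from which its letters were taken, and at -49 in Tyrp1. Dct holds TCATGTG from -151 and its reverse complement from -232, and no match to the 11 bases. The shorter motifs lie inside the longer ones, so these matches overlap. Of all 32851 upstream windows of this length in the RefSeq table, read on both strands, 12.3% hold CATGTG. The longer TCATGTG is in 3.25% of them, and the M-box in 7 windows or 0.0213%. Tyr and Tyrp1 account for 2 of those 7 windows, the complement gene C1qb for another, and the remaining 4 belong to predicted genes with Gm symbols. The table held windows for 7 members, and outside the 3 enzymes only Oca2 had a match, the reverse complement of CATGTG from -186. No member window held CACGTG, the other common Mitf target, which 6.02% of all windows hold. These are matches of letters and not measured binding.

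The libraries labelled knockout held between 29908965 and 32613549 counts and the wildtype libraries between 32863533 and 42318233, and 20581 genes passed the low-count filter. Against the label, Prox1 itself was higher in the libraries labelled knockout: it had 147, 137, 138 and 134 CPM (counts scaled to a common library total) in the libraries labelled knockout, against 109, 114, 106 and 115 CPM in wildtype, a log2 fold change of 0.33 ± 0.05 (SE; edgeR adjusted p = 0.0298). The call was lost without any single library other than library 4 labelled knockout, at edgeR adjusted p between 0.0599 and 0.180. Prox1 is counted as 1 gene, so a loss limited to the floxed part could not be seen, and all directions are given for the libraries as labelled. Across all tested genes, 0.0923% passed an adjusted p of 0.05, 0.034% higher and 0.0583% lower. Markers of the labelled tissue were present in every library, with Tecta, a tectorial membrane gene, at 5358 to 5930 CPM under the knockout label and 5399 to 6097 CPM in wildtype, and the hair cell gene Pou4f3 at 20.7 to 22.4 and 19.1 to 22.7 CPM in the same order of groups.

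Most pigment genes were low in all 4 libraries labelled knockout and differed widely among the 4 wildtype libraries. Dct, Tyr, Pmel, Tyrp1, Slc45a2 and Gpnmb were highest in wildtype library 1 and lowest of the wildtype libraries in library 4, where each except Pmel lay within or below the range of the libraries labelled knockout. None of the 8 members that could be tested passed the threshold over all genes (the quasi-likelihood test of edgeR, Benjamini-Hochberg adjusted over all of them), against 0.0923% of all tested genes. At an unadjusted p under 0.05, 5 of the 8 were lower and 0 higher, against 2.78% and 4.76% of all tested genes. This was not particular to the members. Of the lists described below, 6 of 12 marginal cell, 4 of 6 endothelial and 3 of 3 tested osteoclast genes were also lower at this p. Of the 14 tested genes of melanocyte development and the 12 macrophage genes, 0 were. DESeq2 called 2 of them lower, Kit and Pmel, against 0.256% of all genes it adjusted, and limma-voom called 0. Tyrp1 and Mlana did not pass the low-count filter.

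**Figure D1:**
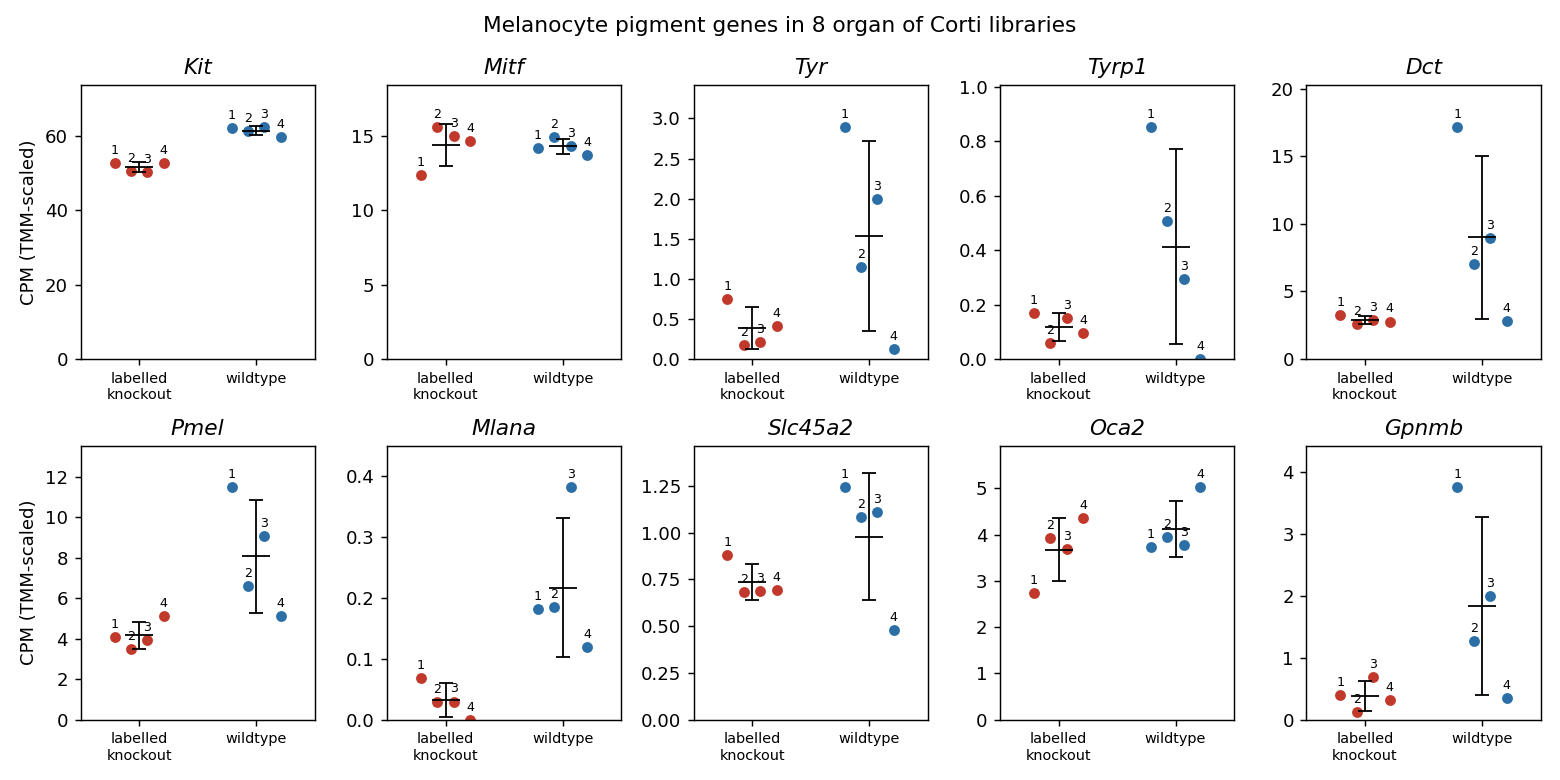
CPM of each of the 10 genes in the libraries labelled knockout (left, red) and wildtype (right, blue). Points are single libraries with their replicate number, and bars give the mean ± SD (n = 4 per group). Wildtype library 1 stands highest for Dct at 17.2 CPM, and wildtype library 4, at 2.84 CPM, lies among the libraries labelled knockout.

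Kit and Mitf stand at the head of the pathway. Kit, the receptor tyrosine kinase through which Kit ligand keeps melanocyte precursors alive and migrating, was the most abundant member, with 52.7, 50.5, 50.4 and 52.8 CPM in the libraries labelled knockout, against 62.1, 61.3, 62.5 and 59.7 CPM in wildtype. The groups did not overlap, and the spread within each was small. Means of 51.6 ± 1.35 and 61.4 ± 1.22 CPM (SD, n = 4 per group) put it at 0.840 times the wildtype mean. The log2 fold change was -0.25 ± 0.05 (SE), and edgeR gave an unadjusted p of 0.000186 and an adjusted p of 0.125. In the authors' deposited table the adjusted p of Kit is 0.00550 with a log2 fold change of -0.26, so the call depends on the tool. Exact permutation of the log2 CPM over all 70 assignments gave the smallest two-sided p it can give, 0.0286.

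Mitf, the transcription factor that sets melanocyte identity and activates the pigment enzymes, did not separate the groups. It had 12.4, 15.6, 15.02 and 14.6 CPM in the libraries labelled knockout and 14.2, 14.9, 14.3 and 13.7 CPM in wildtype. All 4 wildtype values lay inside the range of the libraries labelled knockout. The log2 fold change was 0.01 ± 0.09 (SE), for an edgeR adjusted p of 0.975. Mitf has several promoters with different tissue use, and the counts give 1 value for the gene, so the melanocyte transcript could not be told from the others.

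The enzymes of melanin synthesis varied over a wider range. Dct, the dopachrome tautomerase, had 3.29, 2.62, 2.87 and 2.77 CPM in the libraries labelled knockout, against 17.2, 7.04, 8.96 and 2.84 CPM in wildtype. Wildtype libraries 1, 2 and 3 lay above all libraries labelled knockout, while wildtype library 4 lay within their range. On average Dct stood at 2.89 ± 0.29 and 9.003 ± 6.02 CPM in that order (SD, n = 4 per group). The log2 fold change was -1.64 ± 0.40 (SE), and edgeR gave an unadjusted p of 0.00139 and an adjusted p of 0.354 (exact two-sided permutation p = 0.0857). Without wildtype library 4 it was -1.94 with an adjusted p of 0.0198, and with no low-count filter it was -1.65 with an adjusted p of 0.0409, both by edgeR; with no filter 0.109% of all genes passed.

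Tyr, the tyrosinase that performs the first and rate-limiting step of melanin synthesis, was counted 22, 6, 7 and 13 times in the libraries labelled knockout, against 112, 50, 68 and 4 times in wildtype. In CPM these were 0.746, 0.178, 0.209 and 0.410, against 2.90, 1.15, 1.99 and 0.119. Wildtype library 4 lay below every library labelled knockout and libraries 1, 2 and 3 above all of them. The log2 fold change was -2.02 ± 0.68 (SE; edgeR adjusted p = 0.581).

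Tyrp1, which in the mouse oxidises a late melanin precursor, was counted 5, 2, 5 and 3 times in the libraries labelled knockout, against 33, 22, 10 and 0 times in wildtype. The 0 in wildtype library 4 allows a level of up to 0.0896 CPM, taken as 3 counts and for counting error only. Wildtype library 1, at 0.854 CPM, had an exact Poisson 95% interval of 0.588 to 1.199 CPM, which lies above the interval of library 1 labelled knockout at 0.0551 to 0.396 CPM. The intervals of wildtype libraries 2 and 3, at 0.317 to 0.767 and 0.140 to 0.538 CPM, overlapped that of library 1 labelled knockout. So did the interval of wildtype library 4. Tyrp1 was not tested, and with no filter on low counts its log2 fold change was -1.82 ± 0.68 (SE; edgeR adjusted p = 0.602).

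The structural genes of the melanosome followed. Pmel, whose product forms the fibrils on which melanin is laid down, had 4.10, 3.48, 3.95 and 5.11 CPM in the libraries labelled knockout, against 11.5, 6.61, 9.04 and 5.14 CPM in wildtype. The groups did not overlap, but library 4 labelled knockout and wildtype library 4 were close, at 5.11 and 5.14 CPM, from 162 and 172 counts. On average Pmel stood at 4.16 ± 0.69 and 8.06 ± 2.78 CPM in that order (SD, n = 4 per group). The log2 fold change was -0.96 ± 0.22 (SE), for an edgeR adjusted p of 0.326 and an exact two-sided permutation p of 0.0286. The authors' deposited table gives Pmel an adjusted p of 0.00508. In the GENCODE M21 annotation of GRCm38, Dgka and Cdk2 share 105 and 34 exon bases with Pmel on the opposite strand, of 2292 in all, and the sources used here do not say whether counting used strand, so a part of the Pmel counts could belong to them.

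Mlana, a melanosome membrane protein that binds Pmel, was counted 2, 1, 1 and 0 times in the libraries labelled knockout, against 7, 8, 13 and 4 times in wildtype. The groups did not overlap, at 0 to 0.0678 CPM and 0.119 to 0.381 CPM (exact two-sided permutation of CPM, p = 0.0286). Counting error alone is large here: the exact Poisson 95% interval reached 0.116 CPM in library 4 labelled knockout and began at 0.0326 CPM in wildtype library 4. With Pmel and Kit, Mlana made 3 of the 10 members with every library labelled knockout below every wildtype library. Of the 8 tested members this held for 2, and of all tested genes for 1.62%.

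Slc45a2 and Oca2 encode membrane transport proteins that tune the pH of the melanosome, and neither separated the groups. Slc45a2 had 0.882, 0.684, 0.688 and 0.694 CPM in the libraries labelled knockout, against 1.24, 1.08, 1.11 and 0.478 CPM in wildtype. It kept the pattern of the enzymes at a smaller size, with wildtype libraries 1, 2 and 3 above and wildtype library 4 below all libraries labelled knockout (log2 fold change -0.42 ± 0.29 SE; edgeR adjusted p = 0.702). Oca2 did not share it: its 2.75, 3.92, 3.68 and 4.35 CPM in the libraries labelled knockout stood beside 3.72, 3.96, 3.78 and 5.02 CPM in wildtype, where library 4 was the highest and library 1 the lowest. Its log2 fold change was -0.16 ± 0.17 (SE).

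Gpnmb, a glycoprotein related to Pmel that melanocytes, macrophages and osteoclasts make, had the lowest log2 fold change of the tested members, at -2.26 ± 0.62 (SE; edgeR adjusted p = 0.446). Its counts were 12, 4, 23 and 10 in the libraries labelled knockout, against 145, 55, 68 and 12 in wildtype. These came to 0.407, 0.119, 0.688 and 0.315 CPM, against 3.75, 1.27, 1.99 and 0.358 CPM. Wildtype library 4 again lay within the range of the libraries labelled knockout.

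**Figure D2:**
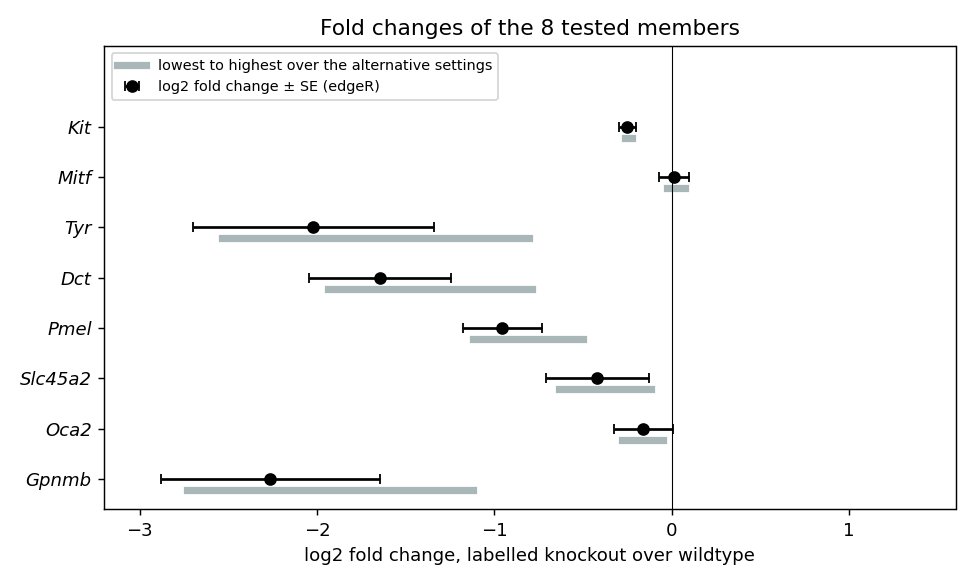
Log2 fold change of the libraries labelled knockout over wildtype for the 8 tested members, as points with the SE of edgeR's fit, and as grey bars the lowest to highest value over the alternative settings. Kit lies close to -0.25 in all settings, while Dct runs from -1.94 to -0.79.

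The median log2 fold change of the 8 tested members was -0.69, against 0.00 over all 20581 tested genes, and 7 of the 8 were below 0, against 10290 of all 20581. Since counts come from pieces of tissue, fewer cells of a type and less RNA per cell cannot be told apart in any of these values. Tyr and Oca2 are both on chromosome 7, and Mitf and Gpnmb both on chromosome 6, and within each pair the order of the libraries was unlike.

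Among the wildtype libraries themselves Tyr, Gpnmb and Dct were among the most variable of all genes, and Kit and Mitf among the least. Tyr ran over a 24.2-fold range of CPM from the lowest to the highest wildtype library, Gpnmb over 10.5-fold, Dct over 6.05-fold, Slc45a2 over 2.60-fold and Pmel over 2.23-fold. Of all 20581 tested genes, 3 had a larger SD of log2 CPM among the wildtype libraries than Tyr, 20 a larger one than Gpnmb and 64 a larger one than Dct. Kit and Mitf were at the other end, with highest-to-lowest ratios of 1.05 and 1.09, and 98.4% and 92.7% of all tested genes had a larger wildtype SD. The median ratio over all tested genes was 1.26 in wildtype, and the median over the 8 members 2.32.

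The spread exceeded counting error by different amounts. For Dct, the squared deviations of the wildtype counts from a common level were 146 times those of Poisson counting (chi-square per degree of freedom), and for Gpnmb, Pmel and Tyr 40.9, 35.3 and 32.5 times, where the median tested gene had 4.26. Tyrp1 had 10.8, while Slc45a2, Oca2 and Mlana, at 4.05, 3.11 and 2.07, lay below that median. For the same relative spread this ratio is smaller at lower counts, and they had 149, 613 and 32 wildtype counts. By SD of log2 CPM among the wildtype libraries, 5.39% of all tested genes exceeded Slc45a2 and 39.4% exceeded Oca2. Mlana, which was not tested, ran over 3.18-fold in wildtype. Kit and Mitf, at 0.824 and 0.695, varied no more among the wildtype libraries than counting allows. Among the libraries labelled knockout the same ratio was 0.887 for Dct, 3.67 for Pmel, 4.90 for Gpnmb and 5.63 for Tyr, with a median of 3.26 over all tested genes. Kit had 1.14 in these libraries, and Mitf 4.22, above that median. Tyr and Gpnmb still differed there by 4.18-fold and 5.79-fold from lowest to highest, at counts of 4 to 23.

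Single libraries could be followed across members. Wildtype library 1 was the highest wildtype library for 6 of the 10 members (Dct, Tyr, Pmel, Tyrp1, Slc45a2 and Gpnmb), and wildtype library 4 the lowest for 9, all but Oca2. Of these 9, Kit and Mitf differed among the wildtype libraries no more than counting allows, so their order says little. Mlana had only 4 counts in library 4, against 7, 8 and 13 in wildtype libraries 1, 2 and 3. Over all tested genes, library 1 was the highest in 23.5%. For the tested members alone, library 4 was lowest for 7 of 8, and this held for 19.1% of all tested genes. It also held for 6 of 6 endothelial and 8 of 12 macrophage genes of the lists below, and for 0 of 10 organ of Corti genes. Among the libraries labelled knockout, library 1 was the highest for 5 of the 10 members, Dct, Tyr, Tyrp1, Mlana and Slc45a2, and library 1 was the highest for 21.3% of all tested genes. Summed over Dct, Tyr, Pmel, Tyrp1, Mlana and Slc45a2, the libraries labelled knockout 1 to 4 held 9.26, 7.05, 7.90 and 9.08 CPM, against 33.8, 16.6, 21.8 and 8.69 CPM in wildtype. The sum of wildtype library 4 thus lay inside the range of the libraries labelled knockout, and the wildtype libraries differed by up to 3.89-fold.

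**Figure D3:**
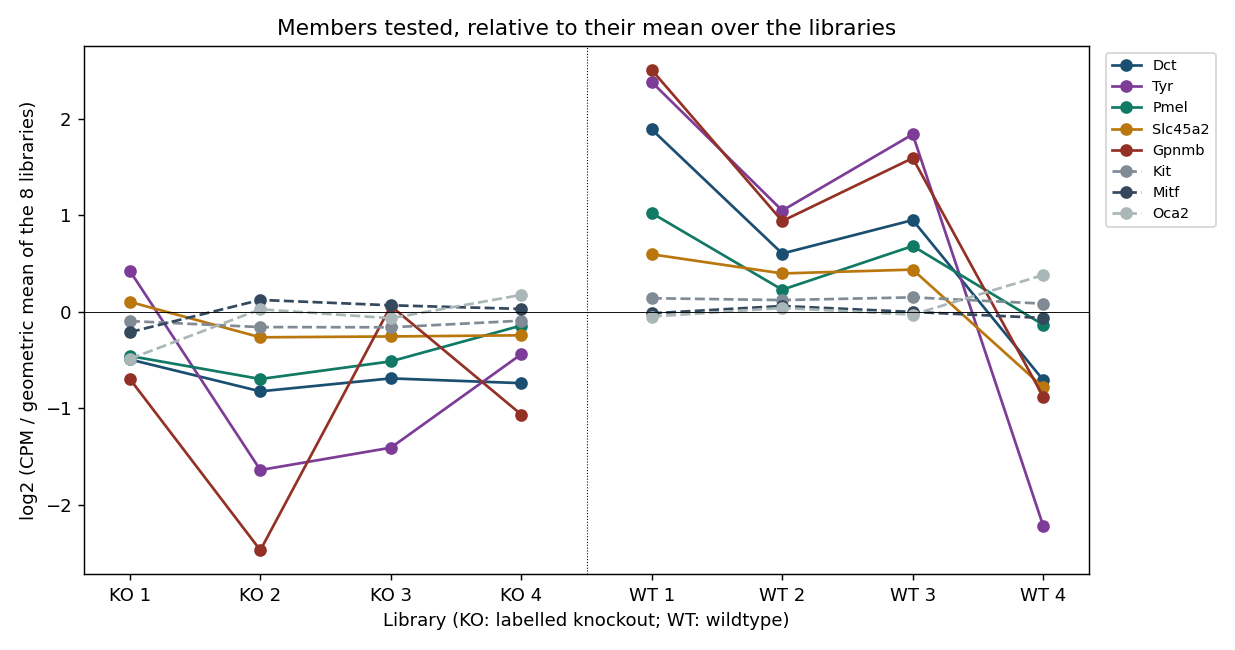
Log2 of the CPM of each tested member over its geometric mean, for the libraries labelled knockout (left) and wildtype (right); lines only link the values of 1 gene, since libraries have no order. Dct, Tyr, Pmel, Slc45a2 and Gpnmb (solid) are high in wildtype libraries 1, 2 and 3 and low in wildtype library 4, while Kit, Mitf and Oca2 (dashed) vary less.

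The proportions among pigment genes also differed between libraries. The ratio of Dct to Pmel, in CPM, was 0.802, 0.752, 0.727 and 0.543 in the libraries labelled knockout 1 to 4, against 1.499, 1.07, 0.990 and 0.552 in wildtype. Kit had 16.02 to 19.3 times the CPM of Dct in the libraries labelled knockout, against 3.62, 8.70, 6.98 and 21.1 times in the wildtype libraries 1 to 4. In both ratios wildtype library 4 had the value of a library labelled knockout or lay next to that range, while Kit itself was high in wildtype library 4 as in the other wildtype libraries.

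Levels of different genes were compared per kilobase of annotated exon (GENCODE M21), since the authors' annotation is not given in the sources used here. In the libraries labelled knockout Kit led with 5.79 ± 0.15 CPM per kb, followed by Mitf with 2.33 ± 0.23, Pmel with 1.81 ± 0.30, Oca2 with 0.928 ± 0.171, Dct with 0.490 ± 0.049 and Slc45a2 with 0.247 ± 0.032 CPM per kb (SD, n = 4). Gpnmb, Tyr, Tyrp1 and Mlana lay between 0.0301 and 0.0587 CPM per kb on average, and neighbours in that order overlapped, as did Mitf and Pmel. In wildtype the order was Kit at 6.89 ± 0.14, Pmel at 3.52 ± 1.21, Mitf at 2.31 ± 0.08, Dct at 1.53 ± 1.02 and Oca2 at 1.04 ± 0.15 CPM per kb (SD, n = 4). There Pmel overlapped Mitf, Mitf overlapped Dct and Dct overlapped Oca2 across libraries, so only Kit stood clear of the next gene in this group of 5. The other 5 wildtype means were between 0.146 and 0.328 CPM per kb.

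**Figure D4:**
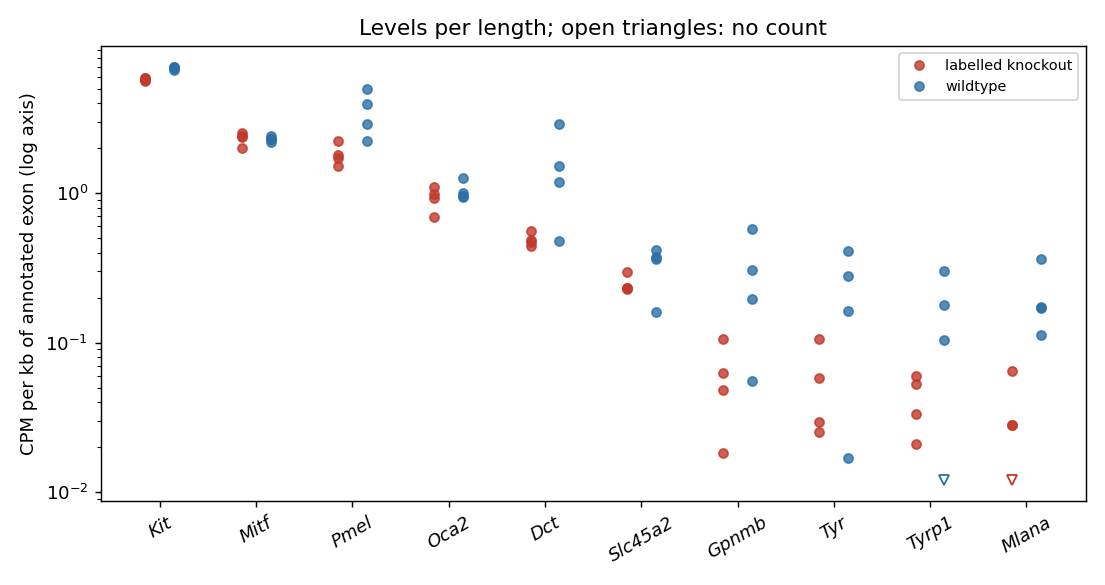
CPM per kb of annotated exon on a log axis for each gene in the libraries labelled knockout (left of each pair, red) and wildtype (right, blue), 1 point per library; open triangles mark libraries with no count. Kit is highest in both groups, and the wildtype points of Dct, Pmel and the genes to the right of Slc45a2 are spread widely.

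The rest of the melanocyte pathway was read from 2 further lists. Of 17 genes of melanocyte development and its signals, 14 were tested, 0 passed in either direction, 7 were below 0 and the median log2 fold change was -0.00. The endothelin receptor gene Ednrb, at 265 to 325 CPM under the knockout label and 302 to 334 CPM in wildtype, had a log2 fold change of -0.12 ± 0.07 (SE), Met -0.14 ± 0.10 and Foxd3 -0.10 ± 0.06. The transcription factor gene Sox10 had 248 to 268 CPM and 234 to 260 CPM in the same order of groups, and the Kit ligand gene Kitl 29.9 to 34.1 CPM and 30.1 to 36.0 CPM. Sox10, Erbb3 and Foxd3 are also on the Schwann cell list, since glia and melanocytes share a neural crest origin. Of 33 genes that build or move melanosomes, 31 were tested, 0 passed, 23 were below 0 and the median was -0.07. Bace2, a protease that cuts Pmel, had the smallest p, at a log2 fold change of -0.35 ± 0.10 (SE), with Tpcn2, a channel of acidic organelles, at 0.25 ± 0.11 and the Pmel sorting factor Cd63 at -0.16 ± 0.08. Many genes of this list serve lysosome-related organelles in all cells. Slc24a5, also of this list, had 0.644, 0.713, 0.748 and 0.504 CPM in the libraries labelled knockout, against 0.905, 0.668, 0.527 and 0.866 CPM in wildtype. There library 3 and not library 4 was the lowest (log2 fold change -0.18 ± 0.26 SE; edgeR adjusted p = 0.846).

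Trpm1, Pax3, Gpr143, Mc1r and Tfap2b of these lists missed the low-count filter, and they were looked at after values were seen. Trpm1, a channel gene first known from melanocytes, had 0.305, 0.208, 0.0598 and 0.252 CPM in the libraries labelled knockout, against 1.84, 0.391, 1.23 and 0.149 CPM in wildtype. Pax3, which acts above Mitf, had 0.170, 0.178, 0 and 0.0631 CPM in the libraries labelled knockout, against 0.517, 0.460, 0.205 and 0.0597 CPM in wildtype. In both genes wildtype library 1 was the highest and library 4 the lowest of the wildtype libraries, and the groups overlapped. Gpr143, a melanosome receptor gene, had 0, 0.149, 0 and 0 CPM in the libraries labelled knockout, against 0.0776, 0.184, 0.205 and 0.0299 CPM in wildtype, with library 3 the highest. Mc1r, the melanocortin receptor gene, had 0.0678, 0, 0.0897 and 0.0315 CPM in the libraries labelled knockout, against 0.129, 0.0691, 0.0293 and 0.119 CPM in wildtype, where library 3 and not library 4 was the lowest. Tfap2b, a transcription factor gene of the neural crest, was at 0 in wildtype libraries 2 and 3 and at most 0.181 CPM in any library.

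Markers of neighbouring and other cell types were set beside these values. Genes of marginal cells, the potassium-secreting epithelium of the stria, had 0 of 12 genes past the threshold, 11 below 0 and a median log2 fold change of -0.20. Their summed level was 2071 to 2321 CPM under the knockout label and 2137 to 2572 CPM in wildtype. The potassium channel subunit gene Kcne1 had 1.90, 0.951, 0.927 and 0.851 CPM in the libraries labelled knockout, against 13.9, 4.53, 8.52 and 1.94 CPM in wildtype (log2 fold change -2.65 ± 0.51 SE; edgeR adjusted p = 0.139). Esrrb, a nuclear receptor gene of marginal cell development, had 8.21, 3.75, 3.80 and 3.31 CPM in the libraries labelled knockout, against 32.4, 14.0, 21.4 and 3.29 CPM in wildtype. Bsnd, the chloride channel subunit barttin, had 0.441, 0.297, 0.150 and 0.0315 CPM, against 3.62, 0.621, 1.52 and 0.299 CPM in wildtype. These 3 genes, which neural crest cells are not known for, ranked the wildtype libraries as Dct did, with library 1 first, then 3, 2 and 4, and library 1 was also the highest of the libraries labelled knockout. Slc12a2, which other cells also make, varied between 805 and 932 CPM in the libraries labelled knockout and 873 and 1054 CPM in wildtype. How far the amount of stria in each dissection shaped the pigment gene values was not tested.

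**Figure D5:**
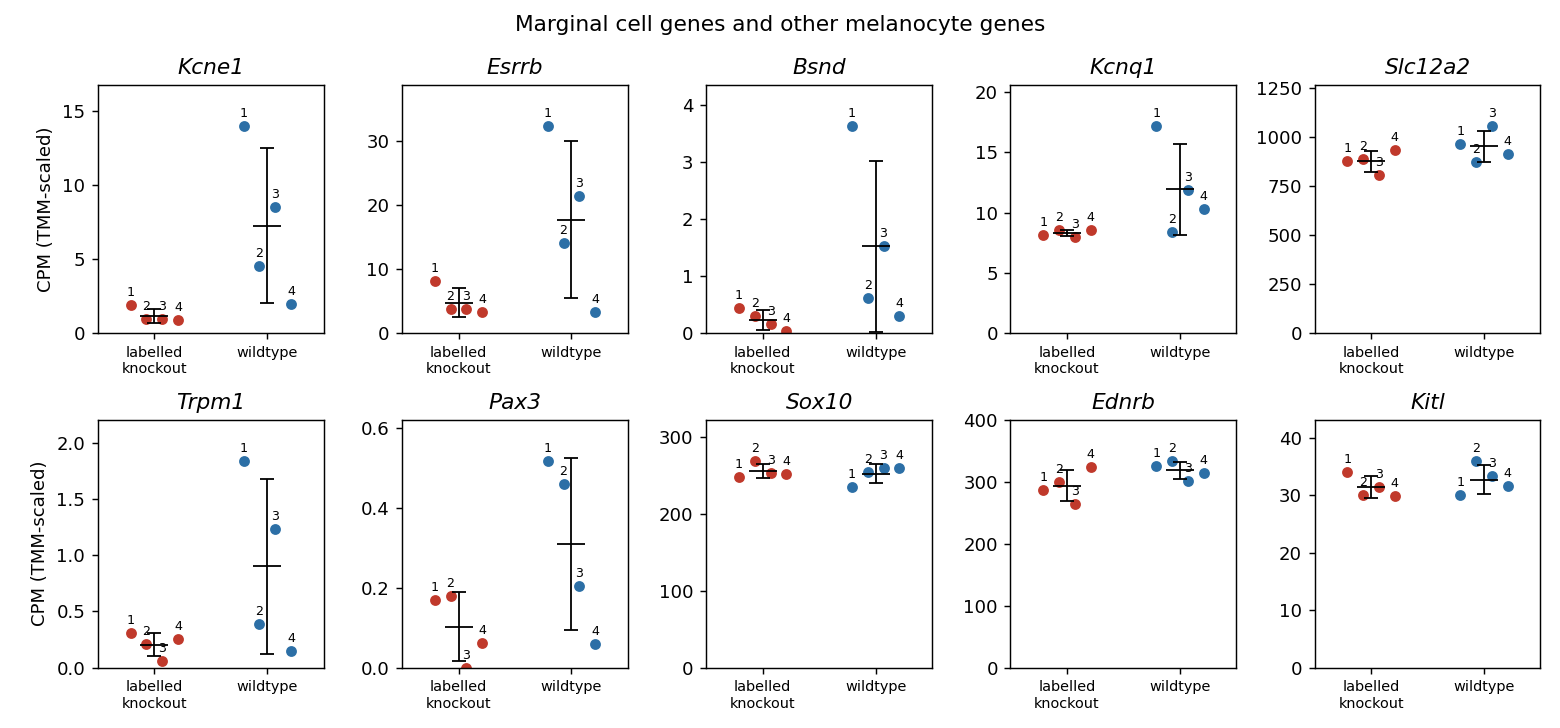
CPM of 5 marginal cell genes (Kcne1, Esrrb, Bsnd, Kcnq1 and Slc12a2) and 5 other melanocyte genes (Trpm1, Pax3, Sox10, Ednrb and Kitl) in the libraries labelled knockout (left, red) and wildtype (right, blue), with replicate numbers and mean ± SD (n = 4 per group). Kcne1, Esrrb and Bsnd are highest in wildtype library 1 and lowest of the wildtype libraries in library 4, whereas Sox10 stays between 234 and 268 CPM in all 8 libraries.

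Of the intermediate cell genes outside the pigment set, none was lowest of the wildtype libraries in library 4, against 19.1% of all tested genes. With 6 genes, a count of 0 does not stand apart from that share. All 6 were tested, 0 passed, all 6 were below 0 and the median was -0.13. Kcnj10 had 33.1, 44.2, 34.2 and 46.5 CPM in the libraries labelled knockout and 37.8, 48.1, 39.4 and 47.3 CPM in wildtype, so wildtype library 4 was not low and wildtype library 1 was the lowest. Kcnj10 is also made by glia and supporting cells. Ptgds, a prostaglandin synthase, had a log2 fold change of -0.54 ± 0.16 (SE), with 44.7 CPM in wildtype library 1, and the semaphorin receptor gene Nrp2 one of -0.24 ± 0.08. The summed level of the list was 297 to 391 CPM under the knockout label and 356 to 398 CPM in wildtype.

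The remaining lists had 0 genes past the threshold each. Basal cell genes (4 tested) had a median log2 fold change of -0.08, with Cldn11 at -0.46 ± 0.19 (SE), Tjp1 at -0.13 ± 0.06 and a summed level of 582 to 632 CPM under the knockout label and 592 to 714 CPM in wildtype. The 4 genes of spindle cells, root cells and Reissner's membrane had a median of -0.17 and summed to 737 to 899 CPM and 794 to 921 CPM, with Anxa1 at -0.57 ± 0.12 (SE). Glial genes (11 tested) had a median of -0.10 and summed to 922 to 1000 CPM under the knockout label and 960 to 1036 CPM in wildtype, and endothelial genes (6 tested, all below 0) had a median of -0.19 and summed to 179 to 190 CPM and 184 to 227 CPM, with Flt1 at -0.20 ± 0.07 (SE). All 6 endothelial genes were lowest of the wildtype libraries in library 4, against 19.1% of all tested genes. The endothelial sum of wildtype library 4, 184 CPM, lay within the range of the libraries labelled knockout. The part of this in the pigment gene values was not tested. The 10 organ of Corti genes had a median of 0.00 and summed to 7098 to 7785 CPM and 7141 to 8019 CPM.

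For Gpnmb, Kit and Mitf, which blood-derived cells also express, the matching markers were read. Macrophage genes (12 tested) had a median log2 fold change of -0.05, and their summed level was 86.2 to 101 CPM under the knockout label and 85.2 to 110 CPM in wildtype, where library 4 was the lowest. Of 7 mast cell genes, 5 were tested, the median was -0.17 and they summed to 4.10 to 5.30 CPM and 4.19 to 6.36 CPM, with Ms4a2 at 0 in 4 of the 8 libraries and Fcer1a at 0 in 7. Of 6 osteoclast genes, 3 were tested and the median was -1.09. Mmp9, a matrix protease, had a log2 fold change of -1.20 ± 0.32 (SE), Ctsk one of -0.36 ± 0.07 and Acp5 one of -1.09 ± 0.48. Dcstamp and Ocstamp, which osteoclasts need to fuse, lay at 0 to 0.0598 CPM under the knockout label and 0 to 0.209 CPM in wildtype. The osteoclast list summed to 27.2 to 33.3 CPM in the libraries labelled knockout, against 35.7 to 45.8 CPM in wildtype. Ctsk alone made 25.1 to 29.0 CPM of this under the knockout label and 31.3 to 36.2 CPM in wildtype. Mmp9 and Acp5 overlapped between the groups. The part of this list in the Gpnmb values was not tested.

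Finally, the genes outside the set whose levels over the 8 libraries ran closest to those of the pigment genes were listed. Likeness was the mean absolute difference, over the 8 libraries, between a gene's log2 CPM centred on its mean and the mean centred profile of Dct, Tyr, Pmel and Slc45a2, among 13397 genes with a median distance of 0.70. The nearest were Bpifb3 (0.25), Hmx3 (0.27), Bnc2 (0.32), Cytl1 (0.33), Ccbe1 (0.37), Enpep (0.38), Frzb (0.40) and Add2 (0.40). Bpifb3 had 1.46, 1.37, 1.56 and 1.89 CPM in the libraries labelled knockout, against 10.6, 3.34, 4.57 and 1.79 CPM in wildtype. Hmx3, a homeobox gene of the inner ear, had 1.46, 1.40, 1.53 and 1.10 CPM, against 4.86, 3.04, 4.48 and 1.52 CPM. Both had wildtype library 4 close to the libraries labelled knockout, which their choice by likeness to this profile favoured. Ccbe1, a secreted protein of lymphatic growth, was the single one of the 8 to pass over all genes (log2 fold change -1.26 ± 0.19 SE; edgeR adjusted p = 0.0257) and did not overlap between groups. Its call was lost without any 1 of the libraries 1, 2 and 3 of either group, at edgeR adjusted p between 0.0638 and 0.147, as well as with the replicate block (0.134) and with limma-voom (0.0551). For the members themselves the distance was 0.18 for Dct, 0.31 for Pmel, 0.38 for Slc45a2 and 0.59 for Tyr, which made up the profile, and 0.61 for Kit, 0.61 for Gpnmb, 0.72 for Mitf and 0.81 for Oca2. The distance depends on the size of the differences between libraries as well as on their order, so it does not rank genes by order alone.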

How the data were processed

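RNA of 8 organ of Corti libraries was sequenced after ribosomal RNA depletion with a NEBNext Ultra II preparation, per the labels. Read trimming with cutadapt 4.3, alignment to GRCm39 by HISAT2 2.2.1, counting by featureCounts, testing by DESeq2 and quality control by FastQC 0.12.1 are named in the submitters' processing notes. The sources used here do not give the annotation, the strand setting or how multi-mapping reads were treated.

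Raw counts per gene were deposited, per the file headers, with group means (a signal) and SDs that were not used. The deposited comparison holds a mean signal, a log2 fold change with its error, a test score and p-values, raw and adjusted. Its direction is not stated, and its signs match knockout over wildtype as labelled. Columns were assigned through the library names that the labels give.

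The low-count filter was filterByExpr of edgeR (minimum count 10), which left 20581 of 41079. Libraries were scaled by TMM, and CPM uses these factors. Fold changes (labelled knockout over wildtype) and tests are from edgeR's quasi-likelihood fit across all kept genes (edgeR 4.0.16, R 4.3.3), with Benjamini-Hochberg adjustment over all of them and a threshold of 0.05. The exact permutation tests run over 70 assignments of log2 CPM (prior count 2). Alternatives were other scalings and filters, DESeq2 1.42.0, limma-voom (limma 3.58.1), the replicate number as a block, libraries left out and protein-coding genes alone. The procedure was tested on simulated data. Replicates all differed beyond counting noise (lowest chi-square per degree of freedom 9.85). Intervals and floors cover counting error only.

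The members and lists were chosen with earlier results of these data known. The genes named are the members, Prox1, up to 3 genes of each list with the smallest p, and the 8 genes nearest in pattern among those averaging 1 or more in log2 CPM. Other names, such as Kcnj10, Sox10, Kitl, Slc12a2 and Tecta, were picked after values were seen. Promoter sequences are from RefSeq on GRCm38.p6, an older build than that of the authors, and were used for their letters only.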

Additional observations from a re-analysis of the deposited data

Results flagged for a closer look

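Slc45a2 stood at 0.882 CPM in library 1 labelled knockout, against 0.684 to 0.694 CPM in the other 3 libraries labelled knockout. Dixon's criterion for a group of 4 flagged this value. This was the only one of 22 groups of 4 libraries (10 members and Prox1, in each genotype) to meet the criterion, and chance meets it in about 1 group of 20. The value rests on 26 counts, against 22 or 23 in the other libraries labelled knockout, and was not further examined. At a chi-square per degree of freedom of 0.387, the libraries labelled knockout differed no more in Slc45a2 than counting allows.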

How the results depend on the processing

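Members called lower numbered 0 in the main analysis, 1 with no filter on low counts (Dct), 2 with DESeq2 (Kit and Pmel) and 0 to 1 with a library left out, the 1 being Dct without wildtype library 4. Members called higher were 0 in all settings run. The median log2 fold change of the tested members moved from -0.69 to -0.24 with the filter of 50 counts in 4 libraries, which dropped Tyr, Slc45a2 and Gpnmb, and was -0.39 without wildtype libraries 1 and 3. Mitf, near 0 throughout, changed sign without library 2 or 3 labelled knockout (-0.028 and -0.0098) and without wildtype library 4 (-0.0073), and ran from -0.028 to 0.077 with a library left out. Marginal cell genes called lower were 1 with no filter, 1 with DESeq2, 1 with the replicate block and 0 to 2 with a library left out. Those of the spindle, root and Reissner's membrane list were 1 with no filter, 1 with DESeq2 and 0 to 1 with a library left out, and those of the osteoclast list 1 with DESeq2. All other list counts stayed at 0. Over all genes, calls were 7 higher and 12 lower in the main analysis, 12 and 24 with no filter, 36 and 50 with DESeq2, 4 and 12 with total counts, 2 and 7 without wildtype libraries 1 and 3, and from 2 to 7 higher and from 8 to 20 lower with a library left out. Prox1 did not pass with total-count scaling, with the replicate block, without wildtype libraries 1 and 3 or without any single library other than library 4 labelled knockout (adjusted p between 0.0599 and 0.478 in edgeR's test). The labels give same-numbered libraries nothing in common but the number. Their deviations from the group means correlated at 0.11, 0.21, -0.28 and -0.14 across genes, and not every library correlated best with its own number. These correlations cannot show whether same-numbered libraries share a litter or a batch. With the replicate number as a block, 3 genes were called higher and 12 lower over all genes, 0 members were called, and their median log2 fold change was -0.64. Depth limits Tyrp1 and Mlana, with 15 and 4 counts in all 4 libraries labelled knockout together, against 65 and 32 in wildtype.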

Other observations

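Among other genes with a wide spread among the wildtype libraries, Gh, Pomc and Acta1, picked after their values were seen, were highest in wildtype library 2. The pituitary hormone gene Gh had 0.577, 0.416, 2.12 and 0.315 CPM in the libraries labelled knockout, against 6.23, 8.63, 0.937 and 1.255 CPM in wildtype (log2 fold change -2.31 ± 0.73 SE; edgeR adjusted p = 0.569). Pomc, the precursor of the melanocortins that act on pigment cells through Mc1r, had 0.441, 0.773, 0.568 and 0.788 CPM in the libraries labelled knockout, against 2.22, 4.05, 1.38 and 0.568 CPM in wildtype. Dct and Tyr were highest in wildtype library 1, as were Esrrb, Kcne1 and Bpifb3, which also have a wide spread. Acta1, the skeletal muscle actin gene, had 0.476 to 1.56 CPM and 0.448 to 3.48 CPM in the same order of groups.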
